A study of Mus musculus with 7 samples.

Results

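Intermediate filament genes were followed in MN9D cells, a mouse line with dopamine neuron traits that was derived from embryonic midbrain and neuroblastoma cells by fusion. The set holds 10 genes of 12393 with a named probe set, namely the simple-epithelial keratins Krt8, Krt18 and Krt19, the mesenchymal and progenitor filaments Vim and Nes, and the neuronal filaments Prph, Ina, Nefl, Nefm and Nefh. Every probe set annotated to these symbols was taken, 21 in all, and 0 others listed a member among several symbols. The data are 4 arrays labelled as MN9D cells overexpressing mouse alpha- and beta-hemoglobin chains and 3 labelled as MN9D cells with an empty vector. Both groups are otherwise labelled as the same untreated line. The design text gives 8 hybridised arrays, and the control array that failed the submitters' quality check was not analysed here. The promoter of the vector, and whether each line is a clone or a pool, were not stated in the labels. The labels do not say that replicates were separate cultures, so errors and p-values describe how much these arrays vary, possibly for technical reasons only.

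Intermediate filaments are rope-like polymers that give cells mechanical strength. Keratins assemble only as pairs of a type II chain such as keratin 8 with a type I chain such as keratin 18 or 19, whereas vimentin and peripherin can assemble alone. Neurofilaments of mature axons are built from the light, medium and heavy chains with alpha-internexin or peripherin, and nestin needs a partner such as vimentin. Nestin and vimentin are known for neural progenitors, alpha-internexin for young neurons, and peripherin for peripheral neurons and neuroblastoma cells.

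Promoter sequence was available from RefSeq (build GRCm38.p6) for 6 of the 10 genes. Shown here are Krt8 and Krt18, a keratin pair whose genes lie 23.9 kb apart and of which only Krt8 was called, Prph and Ina, which were called higher, and Vim, which was called lower. Each run reads 5′ to 3′ from 150 bases before the start that the promoter table gives to 30 bases after it. For Prph that start lies inside the gene as annotated (from 99053579), so its window belongs to a start downstream of the first one. Capitals mark matches on either strand to the TATA box letters TATAAA, to the CCAAT box, to GGGCGG as bound by Sp1 or to the AP-1 core TGANTCA, where N is any base. These are matches of letters only.
Krt8: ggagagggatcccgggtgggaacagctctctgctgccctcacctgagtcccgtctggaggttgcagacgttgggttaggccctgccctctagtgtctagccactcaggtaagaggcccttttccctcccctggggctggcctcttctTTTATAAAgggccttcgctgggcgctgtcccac
Krt18: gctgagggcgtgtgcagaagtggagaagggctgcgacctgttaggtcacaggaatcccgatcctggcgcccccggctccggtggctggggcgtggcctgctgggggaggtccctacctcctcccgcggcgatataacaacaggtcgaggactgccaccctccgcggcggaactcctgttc
Prph: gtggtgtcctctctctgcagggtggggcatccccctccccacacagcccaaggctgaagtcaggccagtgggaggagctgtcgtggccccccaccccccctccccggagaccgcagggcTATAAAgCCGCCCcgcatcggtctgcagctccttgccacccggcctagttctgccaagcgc
Ina: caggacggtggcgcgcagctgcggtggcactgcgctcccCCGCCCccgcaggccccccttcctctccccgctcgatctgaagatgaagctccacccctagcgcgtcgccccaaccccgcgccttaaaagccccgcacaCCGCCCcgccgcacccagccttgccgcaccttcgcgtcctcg
Vim: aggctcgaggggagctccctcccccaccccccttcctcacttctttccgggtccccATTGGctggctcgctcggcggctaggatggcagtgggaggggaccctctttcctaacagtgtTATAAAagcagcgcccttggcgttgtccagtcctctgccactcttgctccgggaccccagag

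The windows are at chr15:102004313-102004492 on the minus strand for Krt8 and, on the plus strand, at chr15:102028066-102028245 for Krt18, chr15:99055024-99055203 for Prph, chr19:47014531-47014710 for Ina and chr2:13574161-13574340 for Vim. TATAAA began 31 bases before this downstream start of Prph and 32 bases before that of Vim, and in Krt8 it spanned the annotated start, where matches on both strands overlap. Of all 32851 windows of the same 180 bases, 8.37% held TATAAA. The letters GGGCGG were found in Prph, Ina and the unprinted Nes window and in 31.0% of all windows. The CCAAT box was found in Vim and in 27.0% of all windows. The AP-1 core was found in 0 of the 6 windows and in 4.99% of all windows. Krt18 held 0 of these 4 motifs, which says only that these letters are not in its window. GC content ran from 61.1% for Nes to 73.3% for Ina, against a median of 53.9% over all windows.

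Values are RMA levels on the log2 scale, and a difference is globin-labelled minus empty vector with its standard error from limma (4 against 3 arrays). A probe set was called changed at a limma adjusted p under 0.05 over 22626 probe sets, of which 39.5% passed, 18.3% higher and 21.2% lower. The genes were chosen by earlier values of this same comparison, the RMA differences of the 7 arrays, so the members' values and calls are given as a description and no p is printed for them. Of the 21 probe sets, 10 were called higher and 3 lower, and 13 had groups that did not overlap, where 43.5% of all probe sets did not. By the brightest probe set of each gene, 4 genes were called higher, 1 lower and 5 not, against 20.6% higher and 20.1% lower among the 12393 genes.

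The arrays were alike in scale, with medians of 8.90 to 8.94. As a check of the labels, 3 probe sets shared by Hba-a1 and Hba-a2 rose by 5.16 to 7.15, whereas that shared by the adult beta-globin genes differed by 0.12 ± 0.06 and was not called. The probe sets of Hba-a1 alone (0.03 ± 0.06) and of Hba-a2 alone (-0.03 ± 0.05) were not called. Of the 2 probe sets of Hbb-b2 alone, 1 was called higher (0.34 ± 0.07) and 1 was not called (-0.05 ± 0.07). The arrays are therefore called globin-labelled, and directions are those of the labels. Of 4 genes that mark catecholamine cells, Th, which encodes tyrosine hydroxylase, was at 11.78 in empty vector and 11.08 in globin-labelled arrays and Ddc at 10.07 and 9.85, both called lower. Dbh, the enzyme gene for noradrenaline synthesis, was at 9.16 and 9.90 and was called higher, while Slc6a3, the dopamine transporter gene, was at 6.33 and 6.36 and was not called. The 3′ minus 5′ difference of the pyruvate carboxylase control moved with the groups, at -0.39 to -0.23 on empty vector arrays and -0.08 to 0.05 on globin-labelled arrays. For beta-actin and Gapdh the groups' means differed by -0.00 and 0.02. The part of this shift in the results below was not tested.

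Krt8, the type II keratin of simple epithelia, was about 7-fold higher in the globin-labelled arrays on all 3 of its probe sets. On the brightest, the empty vector arrays read 7.49, 7.43 and 7.66 and the globin-labelled arrays 10.30, 10.20, 10.33 and 10.36. Every globin-labelled array thus stood at least 2.54 above every empty vector array. The difference was 2.77 ± 0.06, or 6.82-fold, which ranked 19 by size among all probe sets. The other probe sets differed by 3.01 ± 0.06 and 2.67 ± 0.05, 8.06-fold and 6.37-fold, and ranked 12 and 22. The probe set names of all 3 mark designs whose probes can match more than 1 transcript of the gene (a) or similar sequences of other genes (x), so they are not 3 independent measures of Krt8.

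**Figure D1:**
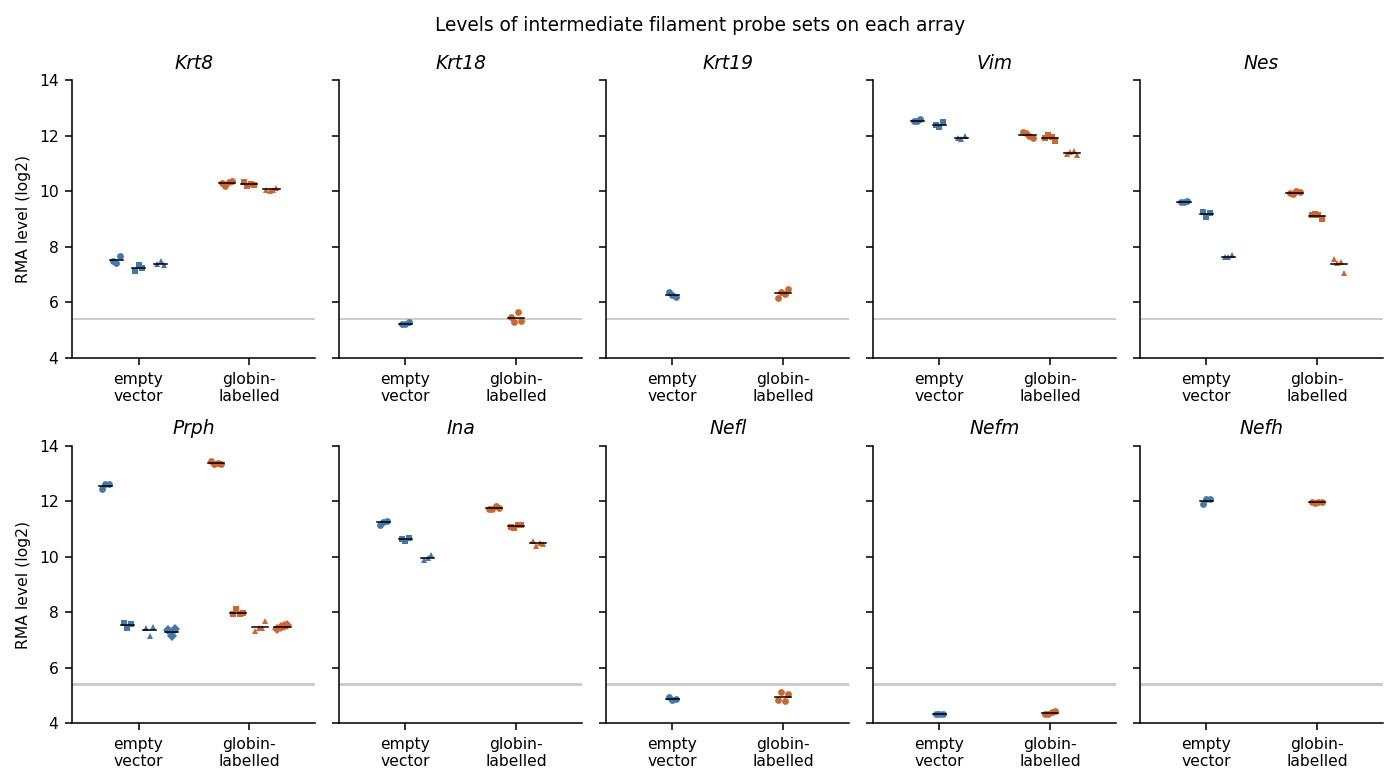
RMA level (log2, vertical axis) of each of the 21 probe sets on each of the 7 arrays, 1 panel per gene. Points are arrays (blue, empty vector; orange, globin-labelled), each marker shape and column is a probe set, black lines are group means, and the grey line spans the arrays' 10th percentiles of 5.36 to 5.44. Krt8 moves from near 7.4 to above 10, while Nefl and Nefm lie below the grey line on all 7 arrays and Krt18 lies beside it.

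The type I partners of keratin 8 did not show a like rise. Krt18 read 5.21, 5.21 and 5.29 on the empty vector arrays and 5.47, 5.29, 5.65 and 5.32 on the globin-labelled arrays. The groups met at 5.29, and 5 of the 7 readings lay below that array's 10th percentile of all probe sets, where signal is dim and folds are compressed. The difference of 0.20 ± 0.08 (95% interval 0.01 to 0.39) was not called, although it was without globin-labelled array 2 (0.25). Krt19, another type I partner, read 6.38, 6.28 and 6.19 against 6.16, 6.36, 6.30 and 6.50, so the groups overlapped throughout. Its difference was 0.05 ± 0.08 (95% interval -0.13 to 0.23), and its sign turned under some settings (-0.01 to 0.11). The upper bound of both intervals is far below the Krt8 difference, but for Krt18 it is a bound on dim signal, and background was not measured.

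Vim, the vimentin gene of mesenchymal and progenitor cells, was lower in the globin-labelled arrays on all 3 probe sets. The brightest read 12.52, 12.53 and 12.59 on empty vector arrays and 12.12, 12.09, 12.00 and 11.93 on globin-labelled arrays. The groups were 0.40 apart at their nearest. Its difference was -0.51 ± 0.05, 1.42-fold lower, and the other probe sets differed by -0.47 ± 0.06 and -0.53 ± 0.05. The probe set at -0.47 carries the name mark x described for Krt8. These 3 values span 0.07, a range at the 12.0th percentile of the 1899 genes with at least 3 probe sets, whose median range was 0.20.

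Nes, which encodes nestin, gave readings that disagreed between its 3 probe sets. The brightest read 9.61, 9.63 and 9.65 against 9.92, 9.90, 10.01 and 9.99 and was called higher, by 0.32 ± 0.04. The next differed by -0.06 ± 0.06 with overlapping groups. The dimmest read 7.62, 7.64 and 7.69 against 7.58, 7.41, 7.47 and 7.08, with no overlap. Its difference of -0.27 ± 0.10 was not called, but was without globin-labelled array 1 (-0.33) and without array 4 (-0.16). The range of 0.59 between the probe sets lay at the 93.2nd percentile of genes with at least 3, so the direction for nestin depends on the probe set. Without globin-labelled array 4, the lowest on both dimmer probe sets, the brightest one was still called.

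Prph, encoding peripherin, was called higher on 3 of its 4 probe sets. The brightest read 12.42, 12.62 and 12.62 on empty vector arrays and 13.45, 13.36, 13.37 and 13.32 on globin-labelled arrays. No globin-labelled reading came within 0.70 of an empty vector reading, and the difference was 0.82 ± 0.06, or 1.77-fold. The remaining 3 probe sets were far dimmer, with group means between 7.29 and 7.99, and differed by 0.45 ± 0.06, 0.19 ± 0.07 and 0.12 ± 0.10. Those at 0.45 and 0.12 carry the name mark x, for probes that can match similar sequences of other genes. The call of 0.19 was marginal, with groups that met at 7.39. It was lost without empty vector array 1 (0.22) or 2 (0.12) and without globin-labelled array 2 (0.19), 3 (0.19) or 4 (0.17). The range of 0.70 between the 4 lay at the 95.9th percentile of genes with at least 3 probe sets.

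Ina, the alpha-internexin gene, was higher on all 3 probe sets by nearly the same amount. The brightest read 11.16, 11.26 and 11.29 on empty vector arrays and 11.72, 11.70, 11.82 and 11.77 on globin-labelled arrays. The groups were 0.41 apart. Its difference was 0.51 ± 0.05, or 1.43-fold, and the others differed by 0.47 ± 0.05 and 0.52 ± 0.05, a range of 0.04 at the 5.21st percentile.

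Of the neurofilament triplet, Nefh was not called beside the higher Prph and Ina, and Nefl and Nefm were too dim to tell. Nefl, the light chain, read 4.95, 4.83 and 4.89 on empty vector arrays and 4.83, 5.13, 4.80 and 5.06 on globin-labelled arrays. Nefm, the medium chain, read 4.35, 4.34 and 4.35 against 4.35, 4.35, 4.40 and 4.43. Both lay below the 10th percentile on all 7 arrays, and their differences of 0.07 ± 0.08 and 0.04 ± 0.04 were not called, so that a change of these chains was not measurable at this signal. Nefh, the heavy chain, was bright, at 11.91, 12.10 and 12.07 against 11.97, 11.92, 11.96 and 11.98. The lowest and the 2 highest of these are all empty vector arrays. The difference of -0.07 ± 0.05 (95% interval -0.18 to 0.05) was not called, but was without empty vector array 1 (-0.12). The single Nefh probe set gives no second measure against which its bright signal could be set.

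**Figure D2:**
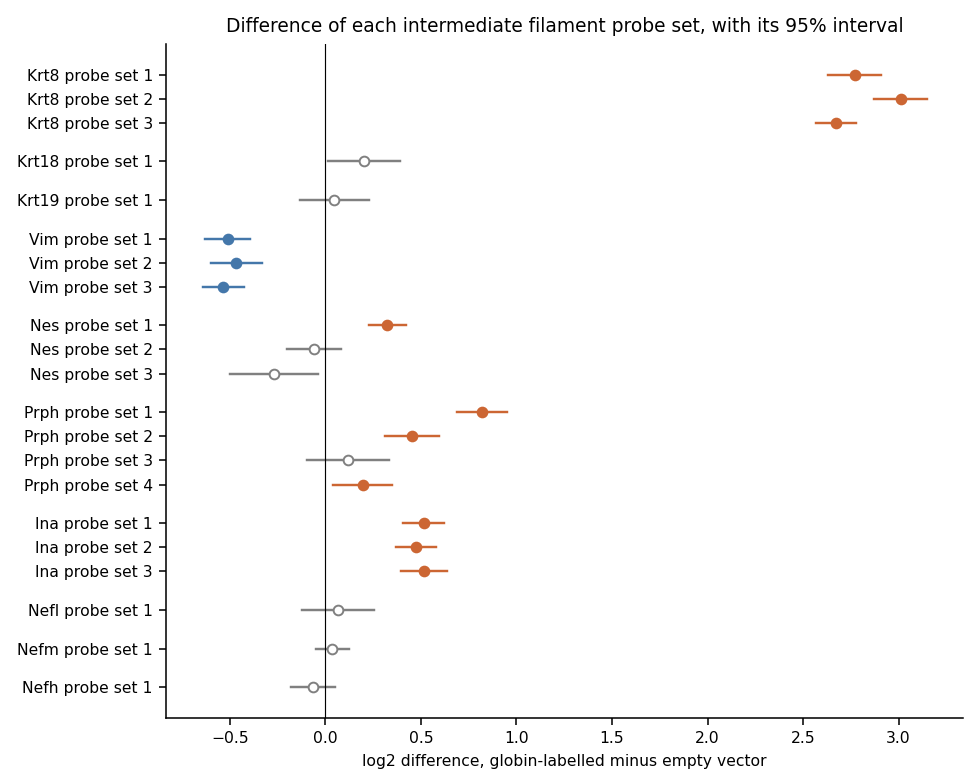
Difference in log2 level, globin-labelled minus empty vector (horizontal axis), for each of the 21 probe sets, numbered from the brightest within a gene. Points are estimates, lines are 95% limma intervals, and filled points were called higher (orange) or lower (blue). The 3 Krt8 probe sets stand between 2.67 and 3.01, the Vim probe sets between -0.53 and -0.47, and the Nes probe sets on both sides of 0.

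The genes whose profile over the 7 arrays lay nearest to that of Krt8, each centred on its own mean, were Tgfbi, a matrix protein gene, Otog and Lix1, at mean absolute distances of 0.10, 0.11 and 0.11. Nearest to Prph were Thop1, Fbxo2 and Car11 at 0.02 to 0.03, and to Ina Igsf8, Cnn2 and Obsl1 at 0.03 each. These genes differed by 2.66 to 2.98, by 0.79 to 0.82 and by 0.47 to 0.52. Since the groups dominate all 7 values, the likeness is mostly that of the difference itself.

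Krt8 (chromosome 15, 101996711 to 102004342, GRCm38.p6) sits at the edge of the type II keratin cluster beside Krt18 (102028216 to 102032026). Of the 5 measured genes on either side of Krt8, 4 were higher and 0 lower by limma (6 and 0 at an unadjusted p under 0.05), with a median of 0.14, where 20.6% of all genes were higher and 20.1% lower. The keratins Krt1 and Krt4 were called by a narrow margin, at 0.16 ± 0.06 and 0.17 ± 0.06 (limma adjusted p = 0.0422 and 0.0447). Krt1 was not called without empty vector array 1 or 3 or globin-labelled array 2 or 4 (0.12 to 0.17), nor Krt4 without any single array except globin-labelled array 3 (0.14 to 0.18). Krt2, Krt77 and Krt79 differed by -0.05 to 0.12 and were not called. On the far side of Krt18, Eif4b, a translation initiation factor gene, was at 0.02 ± 0.04, Spryd3 at 0.12 ± 0.05 and Tns2, a focal adhesion protein gene, rose by 0.26 ± 0.07 (limma adjusted p = 0.0127), a call lost without empty vector array 1 (0.21). Igfbp6, which encodes a growth factor binding protein 139.8 kb away, rose by 1.01 ± 0.05. The Krt8 difference was thus larger than those of the genes on both sides of it.

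For the counts of neighbours that follow, the shares among all genes were 20.6% higher and 20.1% lower. Around Prph (chromosome 15, 99053579 to 99058978), 7 of 10 measured neighbours were higher and 0 lower (8 and 0 at an unadjusted p under 0.05 in limma), with a median of 0.24. Nefh, itself not called, had 6 of 10 neighbours higher and 2 lower (7 and 2 unadjusted in limma), with a median of 0.19. Beside Nefh, Emid1 rose by 0.81 ± 0.06 and Nipsnap1 by 0.35 ± 0.05, while Ap1b1, which overlaps Nefh, fell by 0.12 ± 0.04, a call lost without empty vector array 2 (-0.11) or globin-labelled array 1 (-0.11) or 2 (-0.12). Around Nes 4 of 10 were higher and 0 lower in limma (4 and 1 at an unadjusted p under 0.05), among them Crabp2, a retinoic acid binding protein gene, by 1.17 ± 0.04, and the brain matrix gene Bcan by 0.48 ± 0.07. Around Krt19, in the type I keratin cluster, 2 of 10 were higher and 0 lower in limma (2 and 0 unadjusted), namely Gast by 0.28 ± 0.07 and Krt16. Of the neighbours of Prph, Dhh, a hedgehog ligand gene, rose by 0.57 ± 0.06, Tmbim6 by 0.55 ± 0.05, Prpf40b by 0.54 ± 0.07 and Rhebl1 by 0.50 ± 0.05, while the tubulin gene Tuba1a, 100.1 kb away, was at 0.00 ± 0.05. Around Ina (chromosome 19, 47014681 to 47025327) 5 of 10 were higher and 0 lower (6 and 0 unadjusted in limma), among them Pcgf6, 8.3 kb away, by 0.54 ± 0.04, and Neurl1a by 1.28 ± 0.06. The neighbour of Ina that overlaps it, Nt5c2, rose by 0.17 ± 0.05, a call lost without empty vector array 1 (0.14). Around Vim (chromosome 2, 13574311 to 13582826) 1 of 10 was higher and 1 lower (1 and 3 unadjusted in limma), with a median of -0.08. The called genes were Hacd1, higher by 0.43 ± 0.04, and Trdmt1, which fell by 0.25 ± 0.07, a call lost without empty vector array 1 (-0.19). Around Nefl and Nefm, which lie 30.4 kb apart on chromosome 14, 1 of 10 was higher and 0 lower for each (1 and 0 unadjusted in limma).

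**Figure D3:**
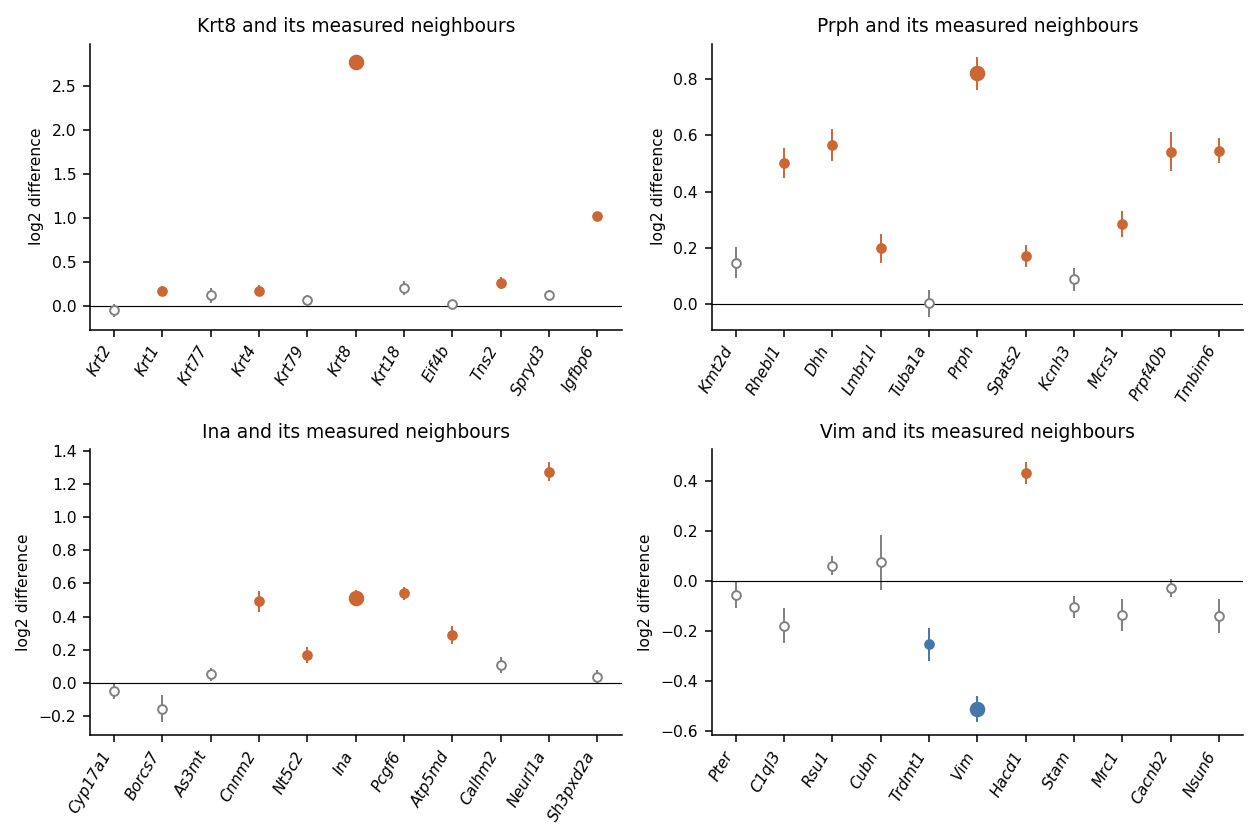
Difference in log2 level (vertical axis, own scale in each panel) of Krt8, Prph, Ina and Vim (large points) and of the 5 measured genes on either side, in chromosome order. Lines are limma standard errors, and filled points were called higher (orange) or lower (blue). Krt8 at 2.77 stands above all its neighbours, whereas Neurl1a at 1.28 exceeds Ina at 0.51. Of the 10 neighbours of Prph 7 were called higher, where 20.6% of all genes were.

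The other genes of the filament system were taken as lists with 1 probe set per gene, the brightest. The lists were drawn up with earlier results of these data known. Their counts and adjusted p-values are thus a description and no independent test. Of 30 other cytoplasmic intermediate filament genes 5 were higher and 0 lower (6 and 0 at an unadjusted p under 0.05 in limma), or 16.7% called against 40.7% of all genes, with a median of 0.05 beside 0.02 for all genes. Des, the muscle filament desmin, rose by 0.38 ± 0.05 from 8.80 to 9.18 (limma adjusted p = 3.64e-04), while its dimmer probe set was not called (0.13 ± 0.06). Krt80 rose by 0.25 ± 0.06, Krt16 by 0.17 ± 0.05 and Krt1 and Krt4 as above. The count fell to 3 without empty vector array 2 or 3 or globin-labelled array 1, and to 2 without globin-labelled array 2 or 4 and under quantile scaling. Krt16 was not called without empty vector array 2 or 3 or globin-labelled array 1, 2 or 4 (0.13 to 0.18). Gfap, the astrocyte filament, was at 7.74 and 7.70 and was not called (-0.04 ± 0.06).

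Of 13 genes of the nuclear lamina, whose lamins are intermediate filaments of the nucleus, 5 were higher and 2 lower. That is 53.8% called, against 40.7% of all genes. Zmpste24, the protease that matures prelamin A, fell by 0.71 ± 0.05 (limma adjusted p = 4.68e-06), and Syne2, a nesprin of the outer nuclear membrane, fell by 0.81 ± 0.09. Sun1, its inner membrane partner, rose by 0.53 ± 0.04, and Banf1, a chromatin-binding lamina protein, by 0.37 ± 0.04. Lmna itself differed by -0.14 on its brightest probe set and was not called. With the probe set of the largest difference standing for each gene, the lower count of this list was 4.

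Cytolinkers, which fasten filaments to junctions and to each other, and desmosome genes had 4 of 16 members higher and 3 lower. That is 43.8% called, against 40.7% of all genes. Eppk1, the epiplakin gene, whose product binds keratin filaments, rose by 1.71 ± 0.07 from 7.85 to 9.55 (limma adjusted p = 2.03e-07). Its lowest globin-labelled array stood above its highest empty vector array. Plec, the plectin gene, rose by 0.44 ± 0.06 and by 0.40 ± 0.07 on its other probe set. Dst, encoding dystonin, rose on 2 probe sets (0.45 ± 0.08 and 0.41 ± 0.08), while its 2 dimmer probe sets fell (-0.65 ± 0.06 and -0.64 ± 0.08). Perp and Pkp4, of desmosomes and cell junctions, fell by 0.52 ± 0.05 and fell by 0.45 ± 0.05, and desmoplakin, Dsp, which ties keratins to desmosomes, was dim and not called (0.04).

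Among 18 kinases, chaperones and turnover factors that act on filaments 7 were higher and 4 lower. That is 61.1% called, against 40.7% of all genes. Prkce, a protein kinase C, rose by 1.01 ± 0.06 (limma adjusted p = 3.67e-06), and the mitotic kinases Cdk1 and Plk1 rose by 0.43 ± 0.06 and 0.35 ± 0.05. Cryab, a small heat shock protein that binds desmin and vimentin filaments, fell by 0.68 ± 0.07, with 1 of its 3 probe sets not called (-0.02 ± 0.05). Ywhaz, the brightest of the list, was not called on its brightest probe set (0.06 ± 0.04), but 4 of its 6 other probe sets were called higher, by 0.14 to 0.22.

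Of 29 transcription factors known from filament genes or their cell types 3 were higher and 10 lower (44.8% called, median 0.00). Among all genes 40.7% were called, 20.6% higher and 20.1% lower. The 3 higher became 1 without empty vector array 2. Grhl2, an epithelial factor, fell from 12.09 in empty vector to 11.09 in globin-labelled arrays (SE 0.05, limma adjusted p = 1.23e-06) and fell by 0.72 on the next probe set, while its 2 dimmest were not called (0.21 and 0.05). The AP-1 genes Jun and Fosl1 fell by 0.55 ± 0.06 and fell by 0.59 ± 0.06. Neurod1, a neuronal factor, rose by 0.46 ± 0.06. Rest, the repressor of neuronal genes outside neurons, fell by 0.31 ± 0.05 (limma adjusted p = 0.00153) and by 0.26 on its dimmest probe set, and the remaining probe set was at 0.00 ± 0.05 and not called. Ets2 fell by 0.14 ± 0.04, a call lost without empty vector array 2 or 3 or globin-labelled array 2 (-0.14 to -0.12).

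Markers of cell types were set beside the members, as averages of log2 level over each list. These lists too were drawn up with earlier results known, so their counts and adjusted p-values are a description. In bulk RNA, fewer cells of a type and less RNA per cell cannot be told apart. Of 20 epithelial junction genes 6 were higher and 3 lower (45.0% called, against 40.7% of all genes), with a list mean of 7.58 to 7.66 on empty vector arrays and 7.64 to 7.72 on globin-labelled arrays. The higher count was 3 without empty vector array 2 or globin-labelled array 2 or 4. Tjp3, a tight junction scaffold, rose by 0.63 ± 0.06, and the epithelial splicing factor gene Esrp2 rose by 0.42 ± 0.05, but not on its dimmer probe set (-0.02 ± 0.04). Epcam, a defining epithelial surface protein, fell by 0.46 ± 0.06 and Spint1, a protease inhibitor, fell by 0.46 ± 0.05. Cdh1, which encodes E-cadherin, was below the 10th percentile on all 7 arrays and was not called (-0.13 ± 0.06), except without empty vector array 2 (-0.18). RMA lists no gene at 0. The part of epithelial cells in the Krt8 difference was not tested.

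Mesenchymal genes, the setting in which vimentin is best known, had 5 of 20 members higher and 4 lower. That is 45.0% called, against 40.7% of all genes. Their list mean was 7.64 to 7.67 on empty vector arrays and 7.84 to 7.89 on globin-labelled arrays. Prrx1, a mesenchymal homeobox gene, rose by 1.94 ± 0.05, Thy1, which also marks neurons, by 1.94 ± 0.06, the receptor gene Pdgfrb by 0.96 ± 0.06 and the fibronectin gene Fn1 by 0.66 ± 0.05, all with limma adjusted p of at most 6.81e-06. On their dimmer probe sets Pdgfrb rose by 0.33 ± 0.06 and Fn1 by 0.24 ± 0.07. Genes were named by smallest p, and these 4 were all higher, so the 4 lower genes of the list are not named. Vim, like those lower genes, fell in the same arrays. Zeb1, the brightest of the list, was not called (0.11 ± 0.05).

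Of 18 neuronal genes 7 were higher and 5 lower (66.7% called, against 40.7% of all genes), and the list mean was 10.59 to 10.64 against 10.64 to 10.70. Stmn2, a microtubule regulator of growing axons, fell by 1.20 ± 0.06 (limma adjusted p = 1.46e-06) and Dclk1, a microtubule-associated kinase, fell by 0.93 ± 0.05, with 2 of its 6 probe sets not called. Rbfox3, the NeuN gene, rose by 1.16 ± 0.08, and Thy1, which is counted in this list too, rose by 1.94 ± 0.06. Stmn3, the brightest, was not called (-0.10 ± 0.04). Neuronal genes therefore moved both ways beside the higher Prph and Ina.

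Progenitor genes, the setting of nestin, had 3 of 12 higher and 1 lower (33.3% called, against 40.7% of all genes). The 1 lower became 0 without empty vector array 3 and 2 without empty vector array 2 or globin-labelled array 3. Their list mean was 8.25 to 8.27 against 8.31 to 8.34. Notch1 rose by 0.68 ± 0.07, Hes1, its target, by 0.37 ± 0.05, and Msi1, an RNA-binding protein gene, by 0.21 ± 0.05, the last not called on its other probe set. Fabp7 fell by 0.30 ± 0.08, a call lost without empty vector array 3 (-0.25). Cd24a, the brightest, was not called on its brightest probe set (-0.03 ± 0.04) nor on its dimmest (0.05 ± 0.05), and was called lower on the other (-0.16 ± 0.05). Of 10 glial genes 0 were higher and 1 lower in limma (0 and 1 at an unadjusted p under 0.05). That is 10% called, against 40.7% of all genes, and the list mean was 6.54 against 6.47 to 6.52. Mbp, a myelin protein gene, fell by 0.70 ± 0.06 on its brightest probe set, and of its other probe sets 4 were called lower, 1 higher and 2 not. Sox10, the brightest glial gene, was not called (0.04 ± 0.05). Of 9 muscle genes, which share desmin with the filament list, 3 were higher and 1 lower (44.4% called, against 40.7% of all genes). The 1 lower became 0 without empty vector array 3 or globin-labelled array 2 or 4. Their list mean was 7.59 to 7.65 against 7.71 to 7.75. The cardiac troponin gene Tnnt2 rose by 0.46 ± 0.07 and the cardiac actin gene Actc1 by 0.18 ± 0.06, the latter not called without any 1 of the empty vector arrays or globin-labelled array 1 or 2 (0.13 to 0.19). Tnnc1, the other troponin gene called, fell by 0.23 ± 0.07 and is the call lost above (-0.20 to -0.18). Myh3, the brightest, was at 0.00 ± 0.05 and not called. The part of these cell types in the results was not tested.

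**Figure D4:**
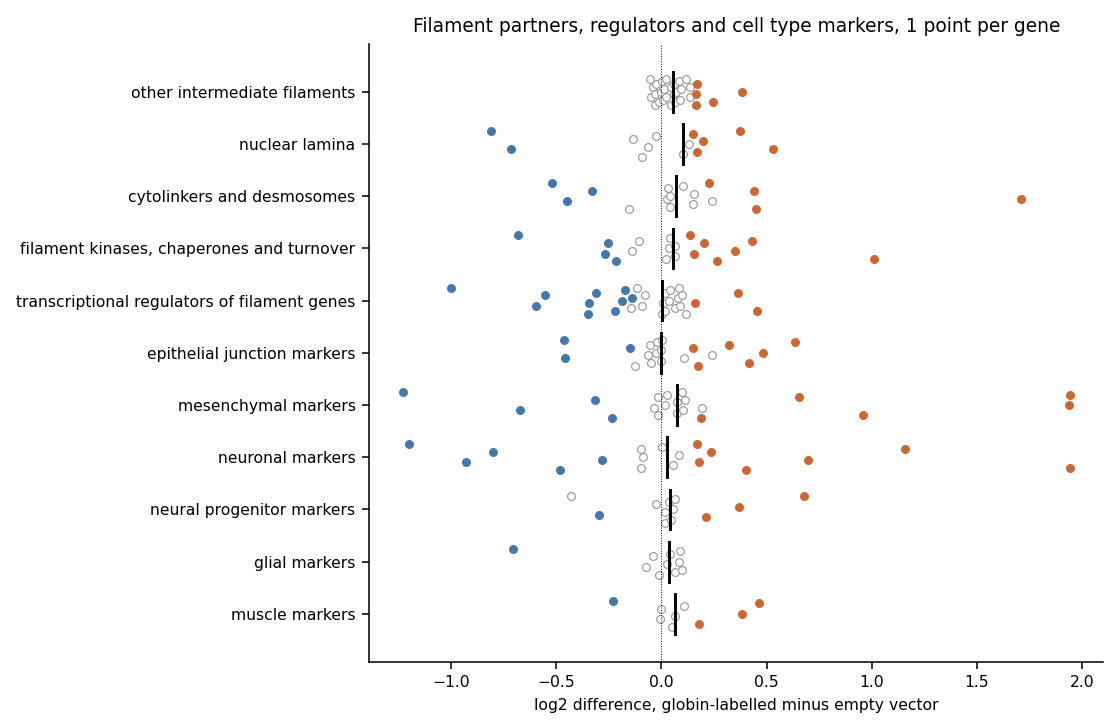
Difference in log2 level, globin-labelled minus empty vector (horizontal axis), for each measured gene of the 11 lists, by its brightest probe set. Filled points were called higher (orange) or lower (blue), open points were not called, and black bars are list medians, which lie between -0.00 and 0.10. The other intermediate filament genes cluster near 0, with Des at 0.38 as the highest, while Eppk1 at 1.71 stands apart among the cytolinkers.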

How the data were processed

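RNA was hybridised to Affymetrix Mouse 430A 2.0 arrays after one-cycle amplification with biotin, per the labels' protocols. The deposited values are on the log2 scale. RMA is the method that the submitters' processing notes name, with no software or version. RMA equalises the arrays' distributions, which hides a shift common to most transcripts, and compresses folds of dim or very bright probe sets. Arrays carry no read depth, and their number limits the precision.

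The 64 array controls among 22690 probe sets were left out. The platform annotation gave 1 symbol for 20380 of the 22626 tested, several for 691 and none for 1555, and probe sets with several symbols named no gene, the shared globin probe sets aside. All 10 members matched the RefSeq table of GRCm38.p6 by Entrez identifier, which also gave the genes' order. limma 3.58.1 in R 4.3.3 (lmFit and eBayes with a term for group alone, Benjamini-Hochberg adjustment over all tested probe sets) gave differences, standard errors and 95% intervals. Members and lists were chosen with earlier results of these data known. Named were every member probe set, up to 4 called genes of each list by smallest p and its brightest gene, Rest, Cdh1, Epcam and Gfap, called genes and others among the 5 measured on either side of a member, and the 3 genes nearest in profile to each of the 3 members that differed most. Lmna, Dsp and the globin and dopaminergic genes were named after their values were seen. Alternatives changed the array scaling, the variance moderation, a filter on dim probe sets, the arrays left out, the replicate block and the probe set that stands for a gene.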

Additional observations from a re-analysis of the deposited data

Results flagged for a closer look

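Among the 4 globin-labelled arrays, the middle Nes probe set had 1 array far from the rest, since array 4 read 8.9985 and the others 9.17 to 9.18. The rest are genome neighbours of members, none of them called. On globin-labelled array 2, Krt2 read 4.16 (others 4.12), Krt14 6.6324 (others 6.63), Krt35 6.30 (others 6.24) and Cyp17a1 7.09 (others 7.20 to 7.22). On globin-labelled array 1, Cubn read 5.75 (others 5.55 to 5.57) and Dpysl2 7.39 (others 7.37). On globin-labelled array 3, Nsun6 read 7.29 (others 7.48 to 7.50). These were 8 of 158 probe sets looked at, and chance alone marks about 1 in 20 such groups where values are not tied. For Krt2, Krt14, Krt35 and Dpysl2 the other globin-labelled arrays held equal values. There any gap, however small, is marked, and that rate does not apply. Groups of 3 were not looked at in this way.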

How the results depend on the processing

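Over the 13 alternative settings run on them, 253 of 269 values of the 21 member probe sets kept their direction or stayed uncalled, on the same side of the threshold. Of the rest, 9 lost a call (the marginal Prph probe set in each case), 7 gained one, and 0 called values reversed. The 3 probe sets of Krt8, of Vim and of Ina, the 2 brightest of Prph and the brightest of Nes were called in every setting run. The filter on dim probe sets left out Krt18, Krt19, Nefl and Nefm, which then gave no value. The replicate numbers did not pair the arrays: deviations of same-numbered arrays correlated at -0.36, -0.30 and -0.14. The replicate block was fitted without globin-labelled array 4, which has no partner of its number. Leaving that array out alone took the higher genes of the filament lists from 24 to 20 and those of the marker lists from 23 to 20, and adding the block took them to 13 and 15. The block also left 2 higher lamina genes (5 without it), 4 higher kinases, chaperones and turnover factors (7) and 4 higher neuronal genes (7); Krt18 was called in it (0.24), and the member counts stayed within 1.5 times. Leaving out single arrays gave 9 to 10 higher and 3 to 4 lower member probe sets. Scaling moved the median of all probe sets to at most 0.02. Dim signal limits Krt18, Nefl and Nefm.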
